A study of Homo sapiens with 4 samples.

Results

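Accessible chromatin was compared around 10 genes of the Notch pathway in a pair of related human prostate cancer cell lines. The genes were the 4 receptors NOTCH1, NOTCH2, NOTCH3 and NOTCH4, the ligands DLL1, DLL3, DLL4, JAG1 and JAG2, and the target gene HES1. They were chosen by name from 19689 protein-coding genes of the GENCODE release 44 annotation of hg38. C4-2B is a prostate adenocarcinoma line. C4-2BER is its enzalutamide-resistant derivative, kept continuously in that drug, labelled neuroendocrine-like and described as lacking the tumour suppressor RB1, among other changes. The labels give no agent or allele that both lines share, and do not say whether the libraries of a line came from separate cultures. ATAC-seq, in which a transposase cuts DNA where chromatin is open, was run on 2 libraries of nuclei from each line. The 2 libraries of a line were merged before peaks were called, so each line has 1 peak list, no difference between the lines has a replicate check, and no test between them was possible. All intervals given below cover counting error only.

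Notch receptors are membrane proteins that are cut when a ligand on a neighbouring cell pulls on them. The freed intracellular part enters the nucleus, joins the DNA-binding protein RBPJ and a Mastermind coactivator, and switches on genes of the HES and HEY families, which are repressors. In the lung and other tissues Notch signalling holds back the neuroendocrine fate, partly because HES1 represses proneural factors. DLL3 differs from the other ligands in that it sits mostly inside the cell, does not activate receptors on neighbouring cells, and is known as a surface marker of small cell and neuroendocrine tumours.

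The C4-2B list held 149676 intervals and the C4-2BER list 118728. The genome-wide background of the peak caller was 2.24 reads per 200 bp in C4-2B against 1.87 in C4-2BER. Judged by it, the depth of C4-2B was 1.20 times that of C4-2BER. Ratios and figures of reads use C4-2BER reads multiplied by that value. Read counts printed in the text are unscaled unless stated. The weakest listed summit had 8 reads in C4-2B against 7 in C4-2BER, and a site missing from a list may therefore still be open below that limit. The promoters of marker genes were checked against the labels. KLK3, which encodes prostate-specific antigen, had 171 reads at its strongest promoter summit in C4-2B against 45 in C4-2BER. NCAM1, a neural adhesion molecule used as a neuroendocrine marker, had 24 reads in C4-2B against 59 in C4-2BER. The promoters of KLK2, TMPRSS2, HOXB13 and FOLH1 and those of CHGA, SYP and INSM1 had a peak in both lists, so neither line lost one class of markers as a whole. PTPRC, the leukocyte marker, had no promoter peak in either list, the endothelial marker PECAM1 had a peak of 16 reads in C4-2BER alone, and the fibroblast-associated VIM and COL1A1 had a peak in both. The part of these markers in the results below was not tested.

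The strongest promoter peak of each gene that had one differed between the lines by less than its counting error. Internal start sites of NOTCH1 and JAG1 had more reads in C4-2BER. They were picked for their high ratios among 101 shared sites, so their intervals do not allow for that choice. The JAG1 site had only 12 reads in C4-2B against 24 in C4-2BER. A promoter peak, within 2 kb of a start site of a protein-coding transcript, was found in both lists for 9 of the 10 genes and in neither list for NOTCH4. Of all protein-coding genes, 77.7% had such a peak in both and 16.0% in neither. The number of reads at the strongest promoter summit, scaled for depth, differed between the lines by a ratio (C4-2BER over C4-2B) of 0.94 for JAG2 at the lowest and 1.26 for DLL3 at the highest, and the exact 95% binomial interval of every one of the 9 ratios included 1. The intervals are wide for the weaker peaks, reaching down to 0.57 for NOTCH2 and up to 1.99 for DLL3. The median ratio over the 18 sites at the genes' own promoters was 1.13, beside 1.08 over all 19433 shared promoter sites of the genome and 0.828 over the 71727 shared sites away from promoters.

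Among the receptors, NOTCH1 had the most reads at its promoter. Its strongest summit lay at -115 bp from the start site in C4-2B, and at -99 bp in C4-2BER (interval chr9:136545643-136547019 in C4-2B, hg38, gene on the minus strand), with 155 reads in C4-2B against 143 in C4-2BER, a ratio of 1.10 (0.87 to 1.39). NOTCH3 had 33 reads in C4-2B against 32 in C4-2BER at its start site (chr19:15200868-15201172), a ratio of 1.16 (0.69 to 1.95). NOTCH2 had 31 and 26 reads (chr1:120069297-120069831), a ratio of 1.00 (0.57 to 1.75). In reads NOTCH1 was thus several times higher than the other receptors with a peak, in both lines. Fold enrichment, the ratio of reads to local background, was instead highest at NOTCH2, with 9.89 in C4-2B and 9.41 in C4-2BER. It was 5.77 and 6.70 at NOTCH1, and 4.52 and 4.20 at NOTCH3. Reads in NOTCH2 can be lost or moved, because near-identical partial copies of the gene lie on the same chromosome and reads of mapping quality under 10 were removed. NOTCH4, a receptor best known from endothelium, had no interval within 2 kb of its start site at chr6:32224067 in either list.

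Among the ligands, DLL1 had the strongest promoter peak of all 10 genes by rank. With 149 reads in C4-2B against 127 in C4-2BER it stood at the 98.5th and the 97.4th percentile of the lists ordered by -log10 p. That peak (chr6:170305894-170307180) lay at the upstream start site of DLL1, which it shares with a start site of FAM120B, and the reads cannot be divided between those genes. At the canonical start site of DLL1, 15.6 kb further into the gene, the summits had 55 reads in C4-2B against 58 in C4-2BER. This peak too lay within 2 kb of a start site of FAM120B, so its reads cannot be assigned to DLL1 alone. DLL4 had 112 and 109 reads (chr15:40928754-40929604), JAG1 121 and 117 (chr20:10673849-10675032), and JAG2 126 and 99 (chr14:105167287-105168115, over exon 2). By reads and by rank DLL3 stood lowest of the 5 ligands, with 40 reads in C4-2B against 42 in C4-2BER, the 51.2nd and the 55.6th percentile (chr19:39497857-39498675). Its ratio of 1.26 (0.80 to 1.99) did not separate the lines. The strongest summit lay at -919 bp from the DLL3 start site in the parental line, and at -353 bp in the resistant one.

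HES1, the target gene, had the most reads of the 10 promoters, 183 in C4-2B against 153 in C4-2BER, with the strongest summit about 1.2 kb before the start site (chr3:194134047-194135304) and a ratio of 1.00 (0.80 to 1.25). Its promoter ranked only at the 80.5th and the 82.3rd percentile, since the peak caller measured it over a local background of 50.1 reads in C4-2B (43.5 for C4-2BER), over 22 times the genome-wide background of 2.24 and 1.87 reads. Ordered by reads instead, the same summits stood at the 99.1st and the 97.9th percentile. The summits at the start site itself had 152 and 136 reads, and those in exon 4 had 166 and 123, so reads were high along the whole gene in both lines.

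**Figure D1:**
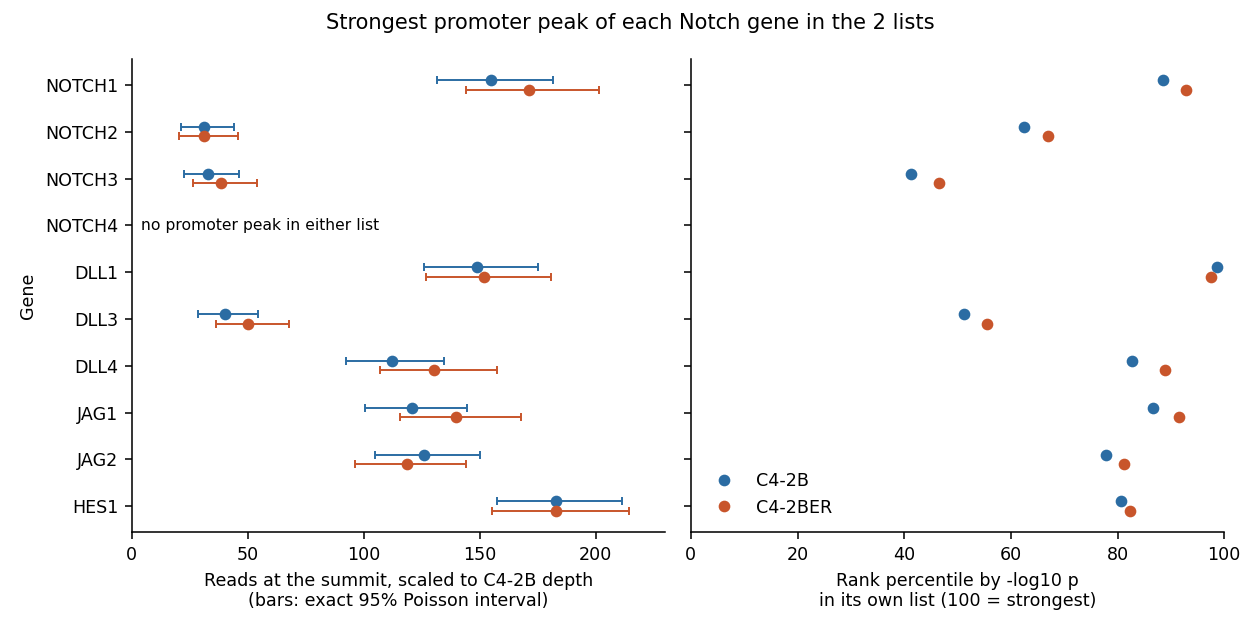
Strongest promoter peak of each gene in C4-2B (blue) and C4-2BER (orange). Left, reads at the summit scaled to the depth of C4-2B, with exact 95% Poisson intervals. Right, rank percentile by -log10 p within each list. The intervals of the lines overlap for all 9 genes with a peak, HES1 has the most reads, and NOTCH2, NOTCH3 and DLL3 the fewest.

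The sequence of the HES1 promoter is shown because it carries the classical Notch response element and was open in both lines. The 250 bases before the start site (chr3:194135898-194136147, plus strand, from RefSeq on GRCh38.p14) hold 2 matches to the RBPJ core TGGGAA, the first bases of which stand at positions -84 and -70 from the start site, in the same direction. Capitals mark these and the matches to the sites bound by HES proteins themselves, 3 to the N-box CACNAG and 2 to the class C site CACGCG, on either strand.
HES1 promoter: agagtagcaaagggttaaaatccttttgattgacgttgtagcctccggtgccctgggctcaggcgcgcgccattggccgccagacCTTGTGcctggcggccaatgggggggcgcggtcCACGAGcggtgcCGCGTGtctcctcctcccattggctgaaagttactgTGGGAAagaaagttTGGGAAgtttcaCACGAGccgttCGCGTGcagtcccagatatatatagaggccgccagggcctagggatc
At least 1 RBPJ core stood in the same 250 bases of 20.8% of the 35116 promoters in the table, and at least 2 in 2.90%. The table held 8 of the 10 genes, without DLL1 and DLL3. None of the promoters of NOTCH1, NOTCH2, NOTCH3, NOTCH4, DLL4, JAG1 and JAG2 held the RBPJ core in these bases.

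By rank, 8 of the 9 promoters stood higher in C4-2BER, by 1.79 points for HES1 to 6.24 for DLL4, and the change for DLL1 was -1.12 points. The median change was 4.40 points, beside a median of 0.588 over the 15305 genes with a peak in both lists. No promoter moved by 10 points or more with the full lists, a size that 10.8% of those genes reached upward and 4.60% downward. These rank changes depended on which intervals were ranked. When the C4-2B list was shortened to the length of the C4-2BER list, 8 of the 9 promoters again stood higher, with a median change of 9.16 points beside 2.22 over all genes. NOTCH2, NOTCH3, DLL3 and DLL4 then rose by 10 points or more, by 10.8 for DLL4 to 20.5 for NOTCH3, as 18.7% of all genes did (2.69% fell that far). Among the 50000 strongest intervals of each list, 5 of 6 stood higher with a median of 18.6 points, beside 4.21 over all genes. When only intervals with a -log10 q of at least 10 were ranked, the median change was -2.44 points and 3 of the 9 promoters stood higher. At the canonical start site of DLL1 the change was 6.64 points in place of -1.12.

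Around the genes, as over the whole lists, C4-2B had more peaks than C4-2BER, and most of what it had alone lay away from promoters. The gene bodies with 50 kb either side span 1422 kb and held 155 C4-2B intervals against 124 from C4-2BER. The whole lists held 149676 against 118728. Of the C4-2B intervals, 107 overlapped an interval of C4-2BER by at least 1 bp and 48 were in C4-2B only, 31.0% (Wilson 95% interval 24.2 to 38.6) beside 37.7% of the whole list. Of the C4-2BER intervals, 106 were shared and 18 were in C4-2BER only, 14.5% (9.38 to 21.8) beside 20.8% of the whole list. The 48 intervals of C4-2B alone were 3 at the genes' own promoters, 1 at another gene's promoter and 44 distal. Over the whole list 52542 of 56491 were distal. The 18 of C4-2BER alone were 0 at own promoters, 3 at other promoters and 15 distal, beside 21491 distal of 24651 over the whole list. The neighbourhoods were rich in peaks in both lines, with a median of 11.6 intervals per 100 kb over the 10 genes in C4-2B against 9.93 in C4-2BER, beside 7.83 and 6.39 over all genes. Which line had more peaks depended on the cut. With a -log10 q of at least 10 there were 111 in C4-2B against 86 in C4-2BER, and among the 50000 strongest intervals of each list 52 against 74.

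The genes differed in these counts. JAG2 had the most intervals, 24 in C4-2B against 16 in C4-2BER, and 8 of its C4-2B intervals were absent from C4-2BER. JAG1 had 11 and 7, and 6 of its 11 C4-2B intervals had no counterpart. DLL4 had 19 and 13, and none of its C4-2BER intervals was new. NOTCH1 had 18 and 13, NOTCH2 14 and 10, and DLL1 13 and 10. DLL3 had 13 in each list, HES1 16 and 15, NOTCH3 16 and 15. NOTCH4 was the exception, with 11 in C4-2B against 12 in C4-2BER, in a window where 9 other genes start and where 7 of the 12 C4-2BER intervals were promoters of those genes. JAG1 and HES1 had no other gene starting in their windows.

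**Figure D2:**
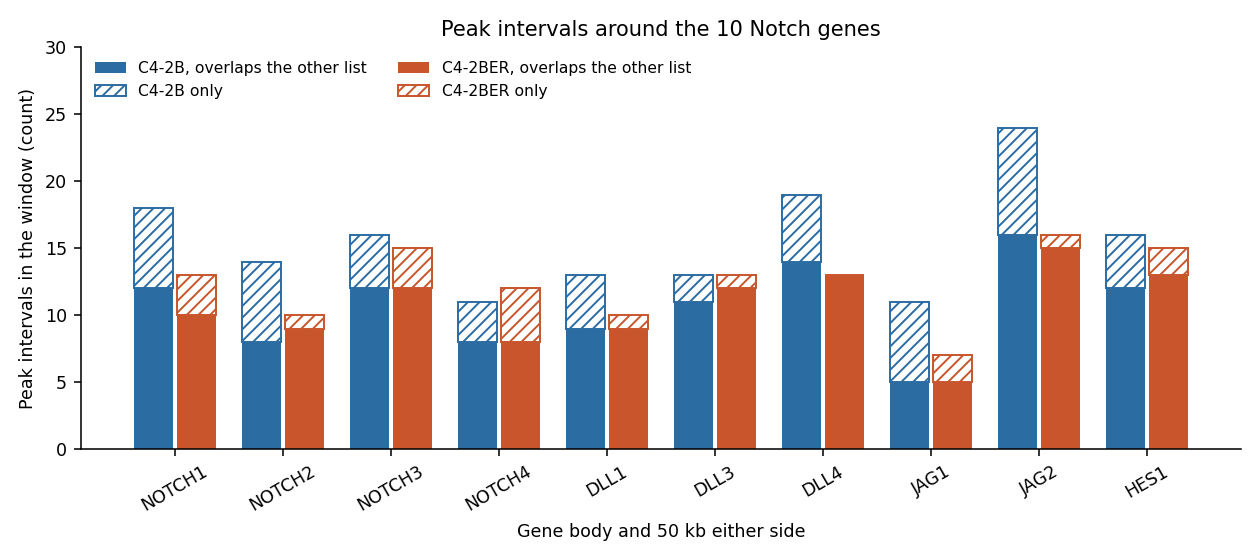
Peak intervals in each gene body and 50 kb either side, in C4-2B (blue) and C4-2BER (orange). Filled bars are intervals that overlap the other list and hatched bars intervals found in 1 list only. C4-2B has the taller bar for 8 of the 10 genes, DLL3 has 13 in each list and NOTCH4 has 12 in C4-2BER against 11.

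NOTCH3 carried the clearest gain of accessibility in C4-2BER, at a pair of sites in its introns. The first lies in intron 17 of 32, 19.7 kb into the gene (chr19:15180845-15181786). It had 123 reads at its summit in C4-2BER, a -log10 q of 71.8 and the 93.9th rank percentile, and C4-2B had no interval there. By -log10 q it was number 36 of the 24651 intervals found in C4-2BER alone. At the same local background, scaled for depth, 28 reads would have entered the C4-2B list, where the C4-2BER summit corresponds to 147 reads. The second lies in intron 10, 13.3 kb into the gene (chr19:15187283-15188068). It was in both lists, with 27 reads in C4-2B against 132 in C4-2BER, a ratio of 5.85 (3.84 to 9.21), number 86 from the top among 91160 shared sites. Its rank went from the 46.8th to the 97.6th percentile.

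The 201 bases around both summits are shown because these sites had the clearest gain of reads in C4-2BER. Both are from the plus strand of hg38, chr19:15181165-15181365 and chr19:15187585-15187785, within introns of a gene on the minus strand. Capitals mark matches, on either strand, to the 7 motifs searched. The first holds a GATA site (AGATAA) and an N-box (CACNAG), and the second holds none of them.
NOTCH3 intron 17: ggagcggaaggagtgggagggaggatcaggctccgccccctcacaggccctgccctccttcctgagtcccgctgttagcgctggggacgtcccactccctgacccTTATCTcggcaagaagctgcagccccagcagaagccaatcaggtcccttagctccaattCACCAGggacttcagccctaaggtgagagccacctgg
NOTCH3 intron 10: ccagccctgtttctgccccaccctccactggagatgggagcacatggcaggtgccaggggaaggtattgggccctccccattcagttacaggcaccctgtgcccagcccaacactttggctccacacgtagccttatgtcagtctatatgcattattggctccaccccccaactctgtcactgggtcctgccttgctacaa

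The other 11 shared sites around NOTCH3 had ratios from 0.54 to 1.41. A site in exon 24, 23.3 kb into the gene, had 76 reads in C4-2B against 65 in C4-2BER, a ratio of 1.02 (0.72 to 1.44). Its rank nevertheless went from the 84.9th to the 72.4th percentile, as its local background rose from 5.9 to 12.4 reads. A site 4.8 kb into the gene, in intron 2, had 76 and 61 reads, a ratio of 0.96 (0.67 to 1.36). The 6 shared distal sites outside the gene had ratios of 0.54 to 1.41, with a median of 0.725. At neighbouring genes, C4-2B alone had a site of 55 reads near the ILVBL promoter (-log10 q 18.8) and C4-2BER alone a site of 24 reads near that of EPHX3 (-log10 q 8.1).

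The other receptors had smaller changes. In NOTCH1, a site in intron 15 at an internal start site (chr9:136512705-136513260) had 40 reads in C4-2B against 60 in C4-2BER, a ratio of 1.79 (1.18 to 2.75). The 3 shared intronic sites of NOTCH1 further upstream, all in intron 2, had ratios of 0.552, 0.616 and 0.899, and the site with 65 reads in C4-2B against 30 in C4-2BER had an interval of 0.35 to 0.86. A C4-2B-only site 9.0 kb before NOTCH1 had 33 reads and a -log10 q of 13.0. In NOTCH2, a site downstream of the gene (chr1:119867670-119868624) went from 136 reads in C4-2B to 40 in C4-2BER, a ratio of 0.35 (0.24 to 0.50). Near it, a site with 31 reads was found in C4-2BER alone (chr1:119870954-119871277, -log10 q 14.3), and in intron 12 a site with 23 reads was found in C4-2B alone (-log10 q 14.2). Around NOTCH4, the C4-2BER list had a site with 71 reads inside PRRT1 (chr6:32148652-32149419, -log10 q 39.2) and another with 50 reads at the promoter of AGER (chr6:32185686-32185992, -log10 q 22.4). They are 75.2 kb and 38.2 kb from the NOTCH4 start site and lie at other genes. Within NOTCH4 itself, C4-2BER alone had a weak site of 14 reads in intron 20 (-log10 q 5.5). Upstream of NOTCH4, C4-2B alone had a site of 31 reads at 48.6 kb (-log10 q 16.9), and a neighbour at 49.6 kb went from 24 reads to 9, a ratio of 0.45 (0.18 to 1.00).

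The strongest C4-2B-only sites in the windows were a distal site of JAG1 and another of DLL3. The JAG1 site lies in intron 3 of 25, 15.0 kb into the gene (chr20:10658484-10659345). It had 87 reads in C4-2B and a -log10 q of 65.6, number 544 of the 56491 intervals found in C4-2B alone, and C4-2BER had no interval there. The DLL3 site lies 35.4 kb before the gene, inside SUPT5H (chr19:39463171-39463853), with 79 reads and a -log10 q of 61.0, number 686 of the same list. Scaled to the depth of C4-2BER these are 72.7 and 66.0 reads, where 13 and 12 reads would have entered its list. The sequences of the 201 bases around both summits are from the plus strand of hg38 (chr20:10658903-10659103 and chr19:39463496-39463696, neither over an annotated exon). Capitals show an RBPJ core in each. In JAG1 they also show TGAATCA, a match to the pattern searched for AP-1 (TGANTCA), which allows any middle base.
JAG1 intron 3: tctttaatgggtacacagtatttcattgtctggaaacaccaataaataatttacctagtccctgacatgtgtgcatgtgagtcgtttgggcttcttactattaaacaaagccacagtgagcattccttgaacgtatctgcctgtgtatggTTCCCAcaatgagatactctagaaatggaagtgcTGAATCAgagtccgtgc
DLL3 upstream: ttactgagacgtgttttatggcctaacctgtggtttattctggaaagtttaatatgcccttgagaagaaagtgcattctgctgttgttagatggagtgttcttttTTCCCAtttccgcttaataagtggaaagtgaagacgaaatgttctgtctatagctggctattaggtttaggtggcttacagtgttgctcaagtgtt
Both motifs are common. The RBPJ core was within 100 bp of the summit in 18.3% of all distal C4-2B-only intervals, and the AP-1 pattern in 11.3%.

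A second DLL3 site of C4-2B alone, 19.6 kb beyond the start site, was much weaker, with 26 reads and a -log10 q of 10.1. It lay within 500 bp of a shared site. Not every site of these ligands moved down. At 47.9 kb beyond the DLL3 start site a site went from 17 reads in C4-2B to 40 in C4-2BER (chr19:39546524-39546996), a ratio of 2.82 (1.56 to 5.30). A pair of sites inside DLL3, in exons 4 and 7, had 66 and 129 reads in C4-2B against 61 and 106 in C4-2BER, with ratios of 1.11 and 0.98. In JAG1 an internal start site in intron 13 (chr20:10647469-10647726) went from 12 to 24 reads, a ratio of 2.39 (1.15 to 5.25). JAG1 also had 3 further C4-2B-only sites past a -log10 q of 10, at 41.2 kb before the gene (25 reads), 74.9 kb beyond its start site inside SLX4IP (21 reads) and 1.3 kb into the gene at its promoter (56 reads), and C4-2BER had 2 weak sites of its own, each with 12 reads. The JAG1 site of 56 reads lay within 500 bp of a shared site.

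At DLL4 the lower ratios were spread over several sites, and DLL1 had none whose interval lay below 1. DLL4 had 158 reads in exon 11 in C4-2B against 80 in C4-2BER, a ratio of 0.61 (0.46 to 0.80). At 28.4 kb beyond the DLL4 start site 77 reads stood against 35, a ratio of 0.54 (0.35 to 0.82), and at 31.7 kb 76 against 33, a ratio of 0.52 (0.33 to 0.79). A DLL4 site at 43.1 kb had the opposite direction, 39 reads and 56, a ratio of 1.72 (1.12 to 2.66). A site of 67 reads at 29.0 kb was found in C4-2B alone (-log10 q 17.6), within 500 bp of the shared site at 28.4 kb. In JAG2 the strongest C4-2B-only site, 78.1 kb beyond the start site, had 86 reads over a local background of 26.7 (-log10 q 17.5), and a site 76.1 kb beyond it was found in C4-2BER alone with 56 reads (-log10 q 6.4). The JAG2 site of 86 reads also lay within 500 bp of a shared site. DLL1 had no C4-2B-only site past a -log10 q of 10, and 1 in C4-2BER alone, 54.0 kb before the canonical start site within FAM120B (21 reads, -log10 q 12.0).

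HES1 kept its promoter peaks and had fewer reads at the shared sites more than 10 kb downstream. The 3 shared sites at the HES1 promoter had ratios of 0.887, 1.00 and 1.07. A shared distal site at 5.6 kb downstream had 155 reads in C4-2B against 131 in C4-2BER, a ratio of 1.01 (0.80 to 1.28). The 6 shared sites more than 10 kb downstream, grouped after their values were seen, had ratios from 0.338 to 0.684 with a median of 0.547, and all 6 were below 1. The median over all shared sites away from promoters was 0.828. At 12.4 kb, 46 reads in C4-2B stood against 13 in C4-2BER, a ratio of 0.34 (0.17 to 0.64). At 11.3 kb, 39 stood against 12, a ratio of 0.37 (0.18 to 0.72). At 40.7 kb, 23 stood against 9, at 30.9 kb 21 against 12, and at 48.4 kb 21 against 11. The intervals at these sites included 1 (0.19 to 1.05, 0.31 to 1.46 and 0.27 to 1.36). On the upstream side, 23.5 kb before the start site, 77 reads stood against 92 (chr3:194112208-194113148), a ratio of 1.43 (1.04 to 1.96). The other upstream site, at 38.4 kb, had 80 reads against 46, a ratio of 0.69 (0.47 to 1.00), so the upstream sites went both ways. A site at 42.8 kb with 26 reads was found in C4-2B alone (-log10 q 12.7). The 201 bases around the summit at 12.4 kb (chr3:194148484-194148684, hg38, plus strand, intergenic) are shown as the HES1 site with the lowest ratio, and hold 1 E-box (CAGCTG, in capitals), a palindrome to which proneural factors bind.
HES1 downstream: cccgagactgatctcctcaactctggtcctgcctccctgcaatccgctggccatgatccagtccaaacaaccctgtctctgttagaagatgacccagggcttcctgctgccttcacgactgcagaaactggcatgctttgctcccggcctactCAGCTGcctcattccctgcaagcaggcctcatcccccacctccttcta
The same E-box was within 100 bp of the summit in 14.3% of all shared distal C4-2B intervals.

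**Figure D3:**
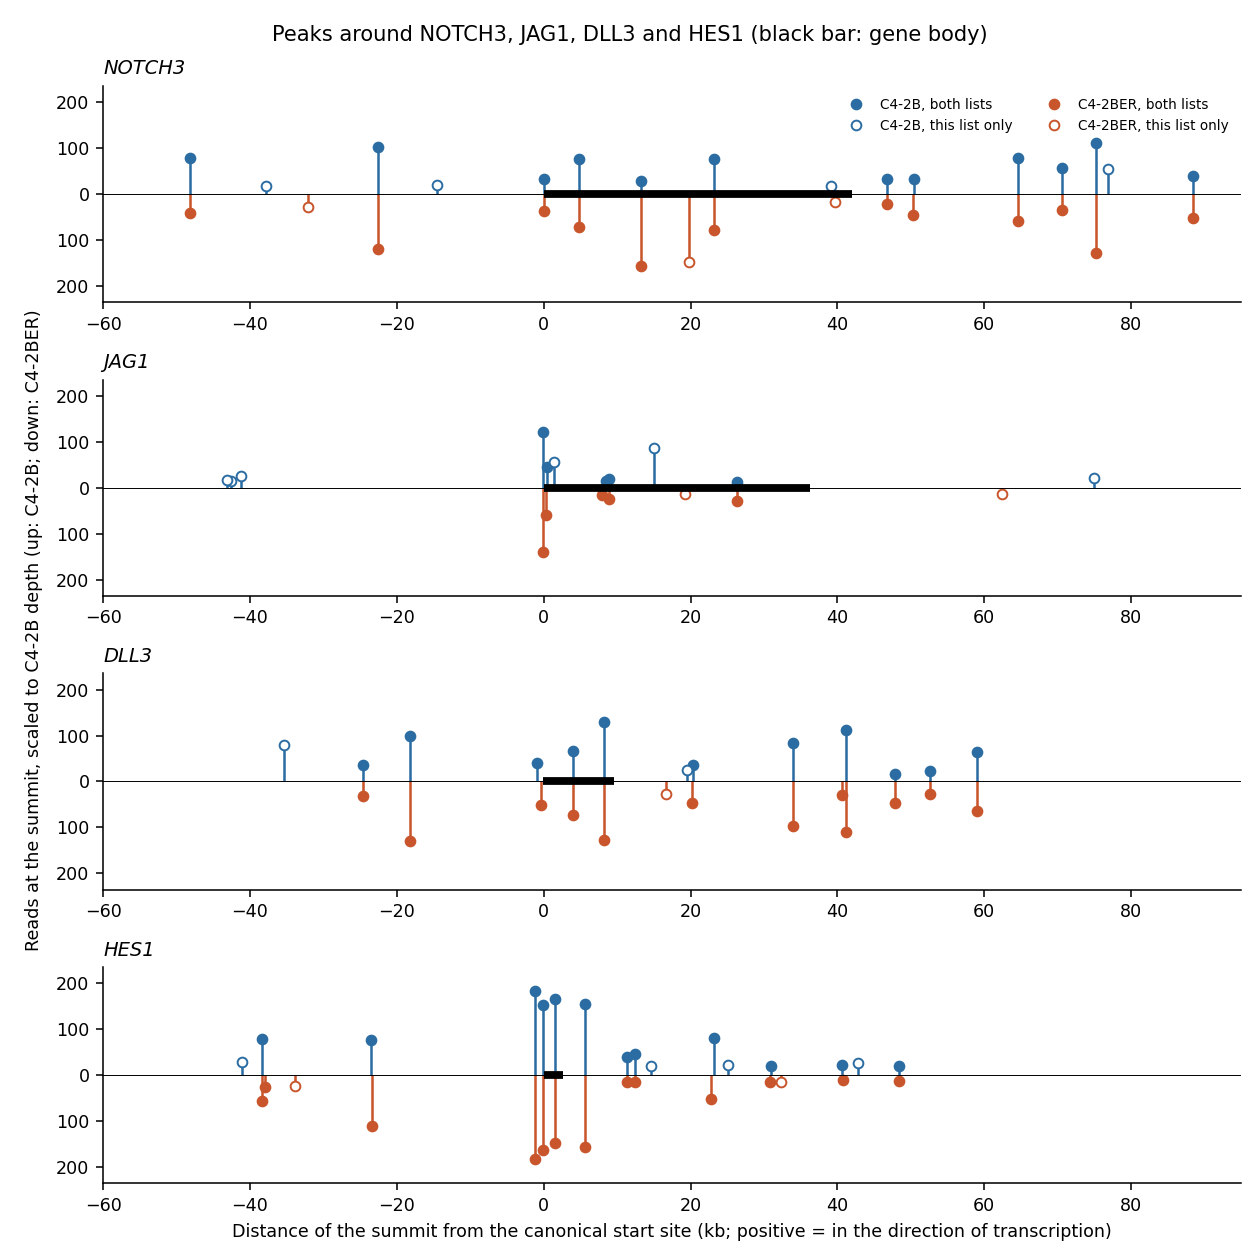
Reads at each summit around NOTCH3, JAG1, DLL3 and HES1 against its distance from the canonical start site, C4-2B upward (blue) and C4-2BER downward (orange), both scaled to the depth of C4-2B. Filled points are in both lists, open points in 1 list only, and the black bar is the gene body. NOTCH3 shows the pair of tall C4-2BER sites inside the gene, and JAG1 and DLL3 a tall open C4-2B point each. HES1 shows bars of like height at the gene and at 5.6 kb. Its C4-2BER bars are shorter at the shared sites more than 10 kb to the right.

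Taking all shared sites around the 10 genes, 101 in number, the median ratio was 1.02, beside 0.900 over all shared sites of the genome. A ratio of at least 2 was found at 3 of them (NOTCH3, DLL3 and JAG1), beside 2.65% of all shared sites, and a ratio of at most 0.5 at 5 of them (3 at HES1, 1 each at NOTCH2 and NOTCH4), beside 13.7%. The 66 distal sites among them had a median ratio of 0.908, and the 17 at promoters of other genes 1.15. A C4-2B-only interval with a -log10 q of at least 10 lay in the windows of 9 of the 10 genes, all but DLL1, beside 67.7% of all genes. A C4-2BER-only interval of that strength lay in the windows of 4 genes, NOTCH2, NOTCH3, NOTCH4 and DLL1, beside 31.4%. With 10 genes, whose windows had a higher median density of peaks than those of all genes, these shares are a description only.

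**Figure D4:**
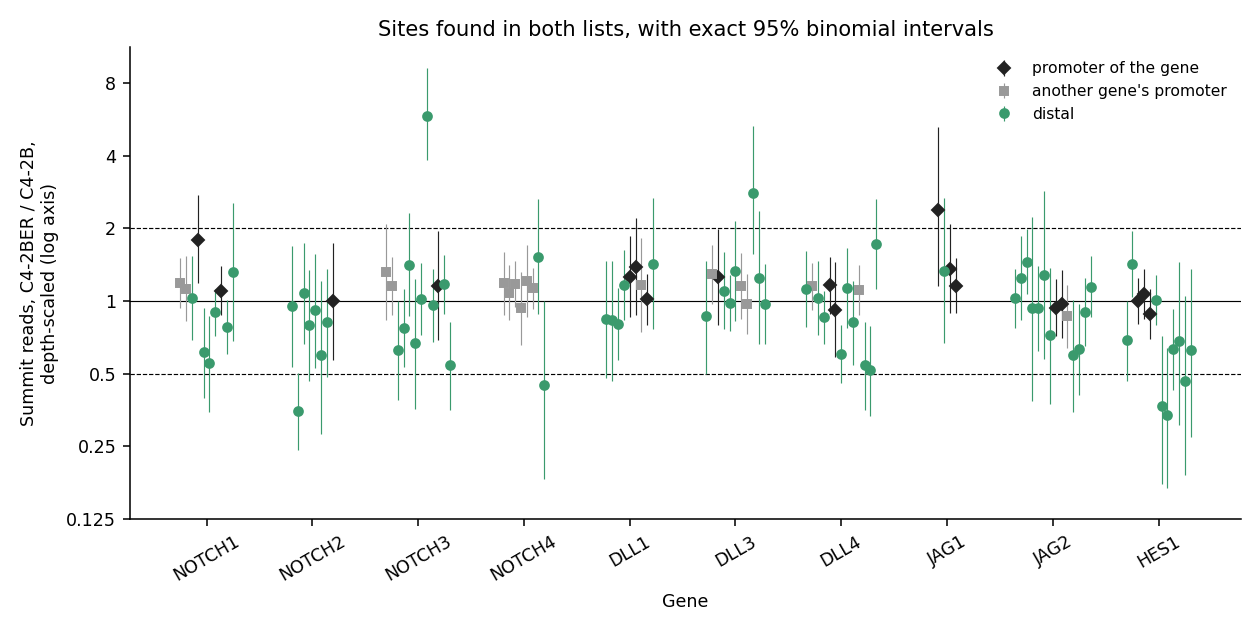
Depth-scaled ratio of summit reads, C4-2BER over C4-2B, at each of the 101 sites found in both lists, on a log axis, with exact 95% binomial intervals and ordered by position within each gene. Diamonds are sites at the gene's own promoter, squares at another gene's promoter and circles distal. The intron 10 site of NOTCH3 stands at 5.85, and sites near HES1 and NOTCH2 reach down to 0.34 and 0.35.

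The RBPJ core occurred in the distal sites of the windows about as often as in the whole lists. It was within 100 bp of the summit at 9 of the 44 distal C4-2B-only sites, 20.5% (Wilson 95% interval 11.2 to 34.5) beside 18.3% in the whole list, and at 3 of the 15 distal C4-2BER-only sites, 20.0% (7.05 to 45.2) beside 18.4%. The AP-1 pattern, with any middle base, was at 8 of the 44 (18.2%, 9.51 to 32.0) beside 11.3%, and at 3 of the 15 (20.0%) beside 9.53%. The shared distal C4-2B sites in the windows had a median GC content of 56.2%, beside 48.3% for shared distal sites of the whole list.

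The other genes of the pathway were, like the receptors and ligands, open in both lines for the most part. Of 45 genes listed for the pathway, the promoter was open in both lists for 39, in C4-2BER only for 4, in C4-2B only for 2 and in neither for 0. Over all genes 3.39% had a peak there in the C4-2BER list alone, 2.83% in that of C4-2B alone, and 77.7% in both. The 9 genes of the nuclear complex, which include RBPJ and the Mastermind coactivators, the 8 of the cleavage machinery, which include the proteases ADAM10 and ADAM17 and the presenilins, and the 5 of receptor glycosylation all had a peak in both. The median rank change over the 39 genes was 0.711 points, and it was 3.65 with lists of equal length and -0.710 with intervals of -log10 q at least 10, so changes of a few points are a description of these lists only. HES6, a HES relative that promotes rather than restrains neural differentiation, was the only one of them that stood 10 points or more higher with the full lists, going from the 80.6th to the 93.8th percentile, with 122 reads in C4-2B against 139 in C4-2BER. Its change was 13.1 points, and 18.2 with lists of equal length. The next were the coactivator MAML3 (7.98 points, with equal reads in both lines), the glycosyltransferase LFNG (6.93), the corepressor SPEN (6.82) and NUMBL (4.32), a relative of the Notch inhibitor NUMB.

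In the other direction HES5, a direct Notch target in neural progenitors, stood 22.1 points lower in C4-2BER, with 83 reads in C4-2B against 54. With lists of equal length its change was -10.7 points. NEURL1, an E3 ubiquitin ligase, changed by -3.87 points, the glycosyltransferase MFNG by -3.13 and HES2 by -2.91.

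HEYL, another Notch target, had the strongest promoter peak found in 1 list alone, with 68 reads in C4-2BER at the 89.5th percentile. HES7, the oscillating repressor of the segmentation clock, had 93 reads in C4-2BER only but at the 34.9th percentile. The ubiquitin ligase genes DTX1 and DTX3 had 16 and 24 reads in C4-2BER only, whereas their relative DTX2 had 42 reads in C4-2B only. DLK1, an atypical ligand, had 18 reads in C4-2B only. Among the 10 genes of targets HES6 stood higher, HES5 lower and 2 had a peak in C4-2BER alone, and among the 11 of trafficking and turnover 3 had a peak in 1 list alone.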

How the data were processed

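ATAC-seq peak lists of C4-2B and C4-2BER were analysed, 1 list per line. According to the study's methods the authors trimmed 50-base read pairs, aligned them to hg38 with Bowtie2, kept mapping quality 10 or more, removed duplicates with Picard, merged the 2 libraries of a line and called peaks with MACS2 with a shift and an extension of reads to 200 bp. The submitters' processing notes also name FastQC and bedtools 2.17. Call thresholds are not given in the sources used here. The deposited columns are a score, the fold enrichment (a ratio of reads to local background) and -log10 p and -log10 q values at each summit. The score was not analysed.

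Rows of an interval were joined, and the summit of highest -log10 p represented it, which left 149676 of 186232 rows in C4-2B and 118728 of 152676 in C4-2BER. Whole reads and the local background at each summit were solved from the fold enrichment and the Poisson -log10 p (100% of summits matched, largest error 0.000259). This step was tested on simulated data, and the overlap count was compared with that of bedtools on the 2 lists themselves. Depth was taken from the lowest background per 200 bp and a genome of 2700000000 bp. Rank percentiles were taken by -log10 p within each list. Windows were the GENCODE 44 gene body with 50 kb either side. Promoters reached 2000 bp either side of a protein-coding start site. Motifs were matched on both strands within 100 bp of summits (TGGGAA for RBPJ, CAGCTG for the E-box, CACNAG for the N-box, CACGCG for HES class C, TGTTTAC for forkhead factors, TGANTCA for AP-1 and AGATAA for GATA factors).

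Shared sites were merged intervals of both lists. Their ratio has an exact binomial interval, shares have Wilson intervals, and intervals cover counting error only, since summits are maxima and reads carry no molecular identifiers. Python 3.11.15, pandas 2.3.3, scipy 1.17.1 and bedtools 2.31.1 were used. The named genes were the 10 genes, and of the pathway list those with a promoter peak in 1 list and the 5 of largest rank change in each direction. The named sites were the strongest promoter peak of each gene, the 10 line-only sites of highest -log10 q in each direction and the shared sites with the 5 highest and 5 lowest ratios. Some marker and pathway genes that were counted, and some motifs, are not reported here. Further sites of the genes were chosen after their values were seen. Genes, lists and motifs were chosen with earlier results of these data known. The 17 alternatives covered list cuts, depth, overlap, window, promoter and scaling.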

Additional observations from a re-analysis of the deposited data

How the results depend on the processing

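No paired analysis was possible because the libraries of each line were merged before peak calling, and for the same reason no library could be left out. Of 139 recomputed summary values, 103 kept within their range and 36 did not. The line with more peaks and the sign of the median promoter rank change each turned under 1 of the alternatives, as given below. The causes were not tested beyond what each alternative changes by construction (fewer peaks, a wider or narrower window). With only intervals of -log10 q at least 10, there were 31 C4-2B-only and 9 C4-2BER-only intervals, the median promoter rank change was -2.44 points (pathway genes -0.710) and 1 pathway gene was in C4-2BER only. At a minimum of 5 the pathway median was -0.00636. With the longer list cut to the shorter, 31 intervals were C4-2B-only, 76.3% of C4-2B intervals were shared, and 1 pathway gene was in C4-2B only. With the top 50000 intervals, C4-2B had 52 (6 C4-2B-only, 88.5% shared) and C4-2BER 74 (63.5% shared), so the line with more peaks was turned, NOTCH2 was the 1 gene with a promoter peak in C4-2BER only, the median rank change was 18.6 points, and 1 pathway gene was found in each line alone. With reciprocal overlap of 50%, 56.8% of C4-2B and 71.0% of C4-2BER intervals were shared and 36 were C4-2BER-only. Of intervals with -log10 q at least 10, set against the whole other list, 16 were C4-2B-only (85.6% shared) and 5 C4-2BER-only (94.2% shared). Of the 16, 11 had no C4-2BER interval within 500 bp, and of the 5, all 5 had no C4-2B interval that near. Windows of 10 kb held 69 and 56 intervals (17 and 7 line-only), and windows of 100 kb 260 and 200 (85 C4-2B-only). With promoters of 1000 bp, 1 pathway gene was in C4-2B only, with 5000 bp NOTCH4 was the 1 gene in C4-2B only and 2 pathway genes were in C4-2BER only, and with canonical start sites alone 0 pathway genes were in C4-2B only. With ratios scaled to their genome-wide median, the HES1 site at 40.7 kb had 0.520 and was no longer at or under 0.5.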
